A study of Mus musculus with 12 samples.

Results

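The 9 genes described here encode proteins that bind the 3′ UTRs of mRNAs and change how long those mRNAs last: Zfp36, Zfp36l1, Zfp36l2, Elavl1, Khsrp, Pum2, Ptbp1, Rc3h1 and Zc3h12a. They were chosen by name, and each matched 1 of the 29486 rows of a gene by library table of normalised read counts. Poly(A) mRNA was sequenced from splenic B cells of C57BL/6Babr mice, which were 8 to 12 weeks old per the methods of the study, in 3 conditions of 4 libraries. LPS libraries came from cells activated with lipopolysaccharide at 10 µg/ml, a bacterial ligand that makes B cells divide, for 48 h. LE libraries came from cells labelled as activated with LPS for 48 h and given etoposide at 20 µM for 4 h. Etoposide is a topoisomerase II poison that breaks DNA. LEKU libraries came from cells labelled as activated with LPS for 47 h and then given KU55933, an inhibitor of the DNA damage kinase ATM, at 10 µM for 1 h before etoposide was added in the same way. Cells given KU55933 without etoposide were not analysed here, so KU55933 was measured only in damaged cells, and all 3 conditions share the LPS activation. Per the methods of the study etoposide followed 48 h of LPS. Time in LPS may therefore differ between the conditions, and its part in the ratios was not tested.

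The half-life of an mRNA is set largely in its 3′ UTR. Proteins of the Zfp36 family bind AU-rich elements, whose core is UAUUUAU, and bring in the CCR4-NOT complex, which removes the poly(A) tail. Elavl1 (HuR) binds AU-rich and U-rich stretches and mostly protects mRNAs, whereas Khsrp (KSRP) binds AU-rich stretches and speeds decay. Pum2 binds UGUANAUA and represses its targets, Ptbp1 binds pyrimidine-rich stretches and acts in splicing as well as in mRNA stability, Rc3h1 (Roquin-1) binds stem-loops, and Zc3h12a (Regnase-1) cuts stem-loop mRNAs. The Zfp36 proteins, Roquin-1 and Regnase-1 are known to limit cytokine mRNAs, and Zfp36l1 and Zfp36l2 are also known to restrain the cell cycle while antigen receptor genes are rearranged.

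Several of these regulators are themselves encoded by mRNAs that carry the elements their families bind. The longest annotated 3′ UTR of each member (GENCODE M21, GRCm38) was searched on the mRNA strand for UAUUUAU and for UGUANAUA, overlapping matches counted, and so were those of 21027 protein-coding genes, of which 27.6% held UAUUUAU and 23.2% held UGUANAUA. UAUUUAU was found 3 times each in the 3′ UTRs of Zfp36 (774 bases), Zfp36l1 (1835 bases) and Zfp36l2 (1822 bases), and 8 times in that of Elavl1 (4218 bases). Among genes whose 3′ UTR was within 20% of the same length, 1.30% held as many matches as Zfp36, 4.31% as many as Zfp36l1, 4.30% as many as Zfp36l2 and 0.282% as many as Elavl1. Pum2 held UGUANAUA 2 times in 2861 bases, and 14.2% of 3′ UTRs of similar length held as many. Rc3h1, whose 3′ UTR of 7181 bases was the longest of the 9, held each motif 2 times, and 46.6% and 45.1% of 3′ UTRs of similar length held as many UAUUUAU and UGUANAUA matches. Ptbp1 held each motif 1 time, and neither was found in the 3′ UTRs of Khsrp and Zc3h12a. A match is a string of letters and not a site shown to be bound. The windows below show, as DNA with T for U, the densest UAUUUAU stretch of the Zfp36 family members and Elavl1 and the first UGUANAUA match of Pum2 and Rc3h1, with the matches in capitals.
Zfp36, chr7:28376962-28376991, minus strand: gggcccttTATTTATgacgacttTATTTAT
Zfp36l1, chr12:80108422-80108451, minus strand: cttatcaaaacgTATTTATtgccaaactat
Zfp36l2, chr17:84184914-84184943, minus strand: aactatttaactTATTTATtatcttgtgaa
Elavl1, chr8:4285776-4285805, minus strand: TATTTATTTATTTATTTATtttTATTTATt
Pum2, chr12:8750154-8750183, plus strand: gtttatagagaTGTATATAgaattatagtt
Rc3h1, chr1:160969826-160969855, plus strand: atggctatatcTGTATATAtatcgggtatg

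The deposited columns limit what can be tested. Within a condition the 4 columns are proportional to each other over all 29486 genes, so they carry the mean of the condition times a factor for each library and hold no spread between replicates. The 4 values of a member in a condition are printed below as deposited, but they differ only by these factors, so whether the columns of 2 conditions overlap is set by the factors and is not read as evidence. Each condition is therefore 1 value per gene, no p-value is given, and the intervals below cover counting error only, from fitted values taken as reads. Column totals ranged from 20739978 to 23935658 in LPS, from 22523516 to 30575195 in LE and from 20400994 to 25052093 in LEKU. At that depth the 95% counting interval of a log2 ratio of a member was between ±0.019 and ±0.051. Below, a level is the scaled condition mean in normalised read counts, a ratio is the log2 ratio of 2 levels with 1 added to each, and a gene is called where the change is at least 1.5-fold. All 9 members were among the 15616 genes that reached 10 in at least 4 libraries. Changes are of mRNA abundance in bulk cells, in which fewer cells of a type and less RNA per cell cannot be told apart. The B cell markers were high in every condition (5 of 5 kept, lowest 1146 for Pax5 in LE), with a summed level of 105519 in LPS, 70360 in LE and 78424 in LEKU. T cell markers were not kept (0 of 5, summed level 7.89 to 9.44), the 6 myeloid markers summed to 402, 478 and 436, and red cell markers (3 of 5 kept) to 203, 181 and 111. The part of these shifts in the results below was not tested.

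**Figure D1:**
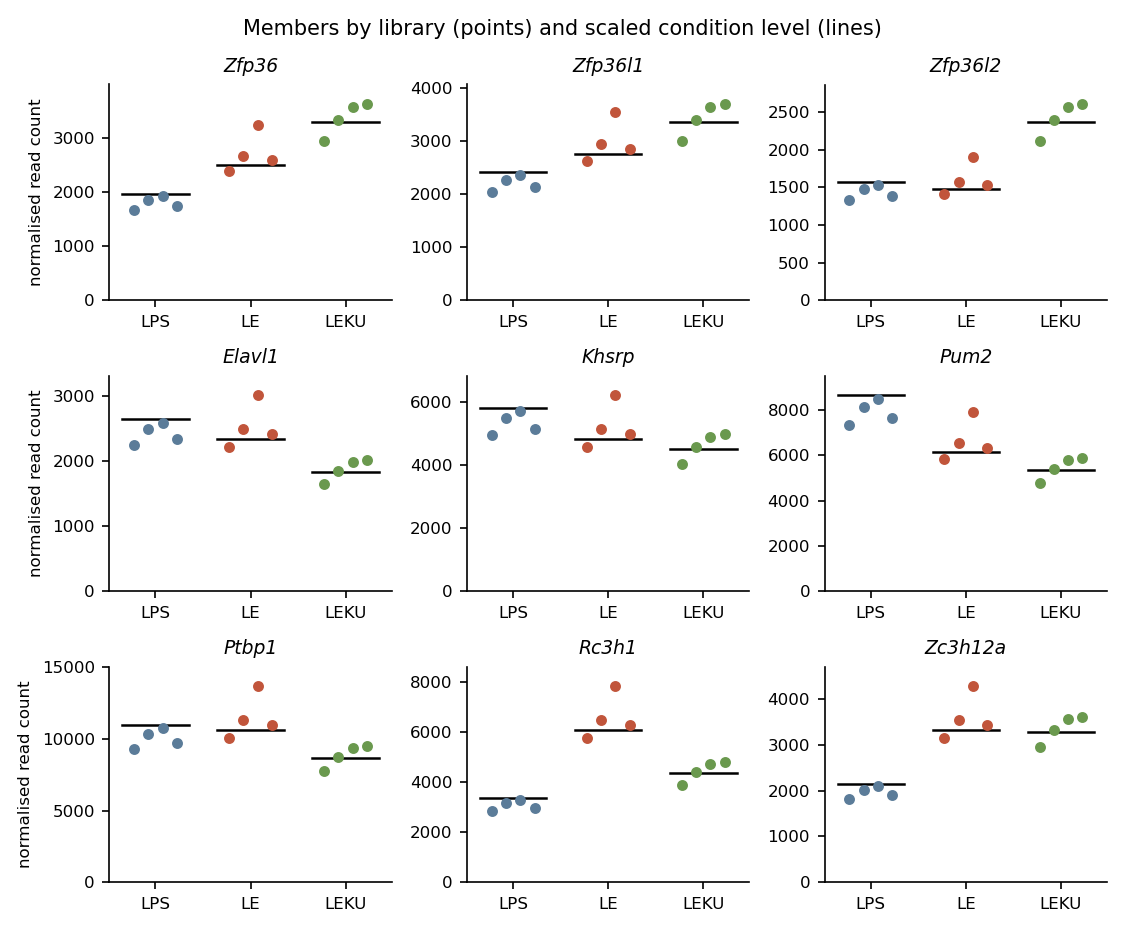
Normalised read counts of the 9 members (y axes, from 0) in each of the 12 libraries (points, 4 per condition in order of replicate number) with the scaled level of each condition (black lines). Differences between points of a condition are library factors and not biological spread. Zfp36, Zfp36l1, Rc3h1 and Zc3h12a have their lowest level in LPS, and Elavl1, Khsrp, Pum2 and Ptbp1 have theirs in LEKU.

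Compared per length of merged exons, the members stood between the 57.3rd and the 96.7th percentile of the genes kept over the 3 conditions. In LPS, Ptbp1 had the highest level per kb (2322), followed by Khsrp (1350), Pum2 (1191), Zfp36l1 (805), Zc3h12a (745), Zfp36 (568), Zfp36l2 (444), Rc3h1 (297) and Elavl1 (255). These placed Ptbp1 at the 96.7th percentile and Elavl1 at the 66.6th. With etoposide the order of levels per kb was Ptbp1, Zc3h12a (1148), Khsrp (1116), Zfp36l1 (919), Pum2 (844), Zfp36 (722), Rc3h1 (536), Zfp36l2 (419) and Elavl1 (225). Zc3h12a thus stood above Khsrp and Pum2 in LE and below both in LPS. Whether neighbours in this order differ beyond replicate spread cannot be given from these columns.

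To ask how DNA damage changed the abundance of these mRNAs, LE was compared with LPS. Rc3h1 and Zc3h12a, the members that encode proteins acting on stem-loops, were at least 1.5-fold higher with etoposide (2 of 9), where 24.1% of all genes kept were called higher. No member was called lower (0 of 9, and 13.5% of all genes). The median log2 ratio of the 9 was -0.05 against 0.07 for all genes, with 4 members above 0 and 5 below. The 22.2% of members called higher was close to the share of all genes, so the count sets the members apart in no way.

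Rc3h1 encodes Roquin-1, which represses mRNAs of costimulatory receptors and cytokines. Its deposited values were 2852, 3164, 3291 and 2965 in LPS, 5771, 6468, 7833 and 6270 in LE, and 3903, 4401, 4715 and 4793 in LEKU. The values were highest in LE and lowest in LPS, in the same order as the levels. The level was 3361 in LPS and 6066 in LE, a 1.80-fold difference (log2 ratio 0.85, counting interval 0.82 to 0.88), and 17.9% of all genes kept had a higher ratio. The ratio lay between 0.71 and 1.10 under the 4 other scalings tried, past 1.5-fold in each.

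Zc3h12a encodes Regnase-1, an endonuclease that degrades cytokine mRNAs and is cleaved after receptor signalling. Its deposited values were 1822, 2021, 2103 and 1895 in LPS, 3148, 3528, 4273 and 3420 in LE, and 2941, 3316, 3553 and 3611 in LEKU. The values were lowest in LPS. The level was 1.54-fold higher in LE than in LPS (log2 ratio 0.62, counting interval 0.58 to 0.66), just past the threshold. With TMM factors the ratio was 0.48 and was not called.

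Among the AU-rich element binders, the destabilising Zfp36 was 1.27-fold higher in LE (log2 ratio 0.35) and Zfp36l1 was 1.14-fold higher (0.19), both short of 1.5-fold. Zfp36l2 was nearly level (-0.08), as was Ptbp1 (-0.05), the splicing and stability factor. The sign turned when the columns were used as deposited for Zfp36l2 (0.17) and for Ptbp1 (0.20), which also turned with quantile normalization. Zfp36 reached the threshold when the columns were used as deposited (0.60), a setting that moved the median of all genes by 0.25.

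Elavl1, Khsrp and Pum2 were lower in LE. Pum2 had the lowest ratio of the 9, at -0.50 (0.708 of its LPS level). Its deposited values were 7339, 8142, 8470 and 7632 in LPS, 5829, 6533, 7912 and 6333 in LE, and 4794, 5405, 5791 and 5886 in LEKU. The levels behind these values were 8650, 6127 and 5346, highest in LPS and lowest in LEKU. The Pum2 ratio was not called, except with TMM factors (-0.64). Khsrp was at -0.27 and Elavl1 at -0.18, the latter turning to 0.07 with the columns as deposited.

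**Figure D2:**
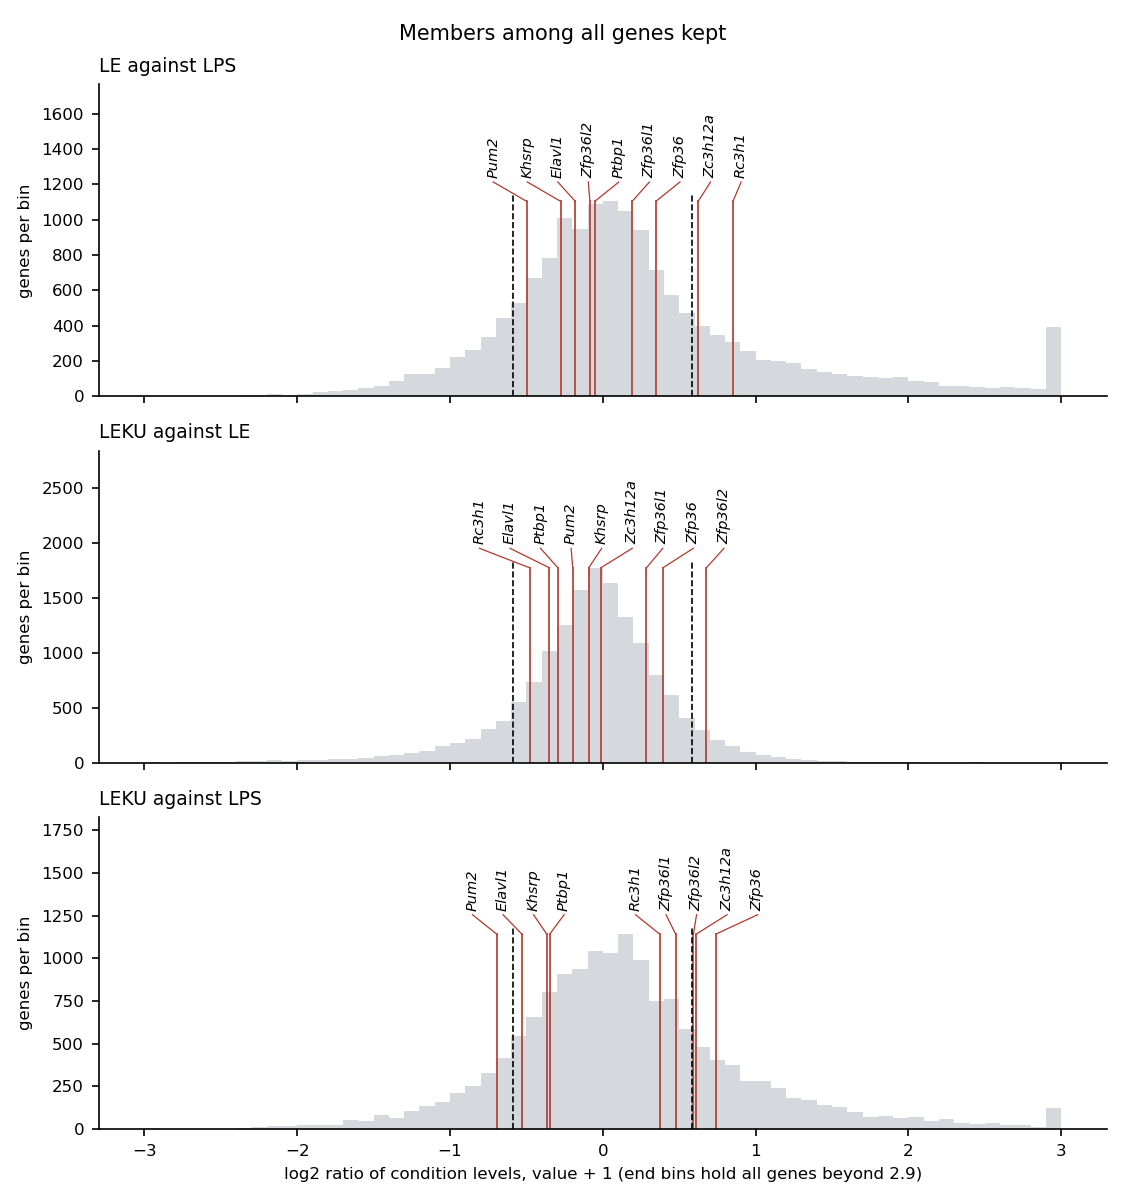
Number of genes kept (y axes, bins of 0.1) by log2 ratio (x axis) in the 3 comparisons, with the members as red lines and 1.5-fold as dashed lines. The members lie between -0.50 and 0.85 for LE against LPS, between -0.48 and 0.68 for LEKU against LE, and between -0.69 and 0.74 for LEKU against LPS. In LEKU against LE, 5.01% of all genes kept lie above Zfp36l2, the highest member.

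To ask which of these differences depended on ATM, LEKU was compared with LE. The 3 Zfp36 family mRNAs were the members with a higher level when ATM was inhibited, and the other 6 were lower or level. Zfp36l2 was called higher (1 of 9, and 6.85% of all genes), and no member was called lower (0 of 9, and 12.1% of all genes). The median ratio of the members was -0.09 against -0.05 for all genes.

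Zfp36l2 encodes the family member that acts with Zfp36l1 in lymphocyte development. Its deposited values were 1331, 1476, 1536 and 1384 in LPS, 1407, 1577, 1910 and 1529 in LE, and 2122, 2393, 2564 and 2606 in LEKU. The values were highest in LEKU. The level was 1479 in LE and 2366 in LEKU, 60.0% higher (log2 ratio 0.68, counting interval 0.63 to 0.72), and 5.01% of all genes kept had a higher ratio. It stayed between 0.59 and 0.76 under the 4 other scalings.

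Zfp36, which encodes tristetraprolin, was 1.31-fold higher in LEKU than in LE (log2 ratio 0.39) and Zfp36l1 was 1.22-fold higher (0.29). The deposited values of Zfp36 were 1671, 1854, 1929 and 1738 in LPS, 2382, 2670, 3234 and 2589 in LE, and 2949, 3326, 3563 and 3622 in LEKU. The levels behind these values were 1970, 2504 and 3289, lowest in LPS and highest in LEKU. The 3 ratios of the family were above 0 under every scaling tried.

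Rc3h1 was 0.718 of its LE level in LEKU (log2 ratio -0.48), short of the threshold under every scaling (-0.56 to -0.40). Its LEKU level of 4353 was still 1.29-fold its LPS level. Zc3h12a, by contrast, had nearly the same level in LE (3309) and LEKU (3280), with a ratio of -0.01 and a counting interval of -0.05 to 0.02. Its sign turned with TMM factors, library totals and quantile normalization. The difference between Rc3h1 and Zc3h12a in this respect was not tested.

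The mRNAs of the remaining binders were lower in LEKU than in LE by small amounts. The log2 ratio was -0.35 for Elavl1, -0.29 for Ptbp1, -0.20 for Pum2 and -0.09 for Khsrp. For Khsrp the sign turned with quantile normalization (0.02). The deposited values of Elavl1 spanned 2243 to 2589 in LPS, 2220 to 3014 in LE and 1643 to 2017 in LEKU, behind which lay levels of 2644, 2334 and 1832. Those of Ptbp1 spanned 9338 to 10776, 10089 to 13696 and 7755 to 9523, and those of Khsrp 4948 to 5710, 4585 to 6224 and 4054 to 4978. The level was lowest in LEKU for both, at 8649 for Ptbp1 and 4521 for Khsrp.

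Cells with both compounds were also compared with LPS alone. This comparison shares its libraries with those above, so its values are given only beside them. The mRNAs of the Zfp36 family, Rc3h1 and Zc3h12a were higher and those of Elavl1, Khsrp, Pum2 and Ptbp1 were lower, with a median log2 ratio of 0.37 against 0.09 for all genes. Zfp36 (1.67-fold, log2 ratio 0.74), Zc3h12a (1.53-fold, 0.61) and Zfp36l2 (1.51-fold, 0.59) were called higher (3 of 9, and 22.7% of all genes). Pum2 was called lower (1 of 9, and 13.3% of all genes), at 0.618 of its LPS level (-0.69). Just inside and outside the threshold lay Zfp36l2 at 0.59, Elavl1 at -0.53 and Zfp36l1 at 0.48. Only the Zfp36 call among these held under all 4 other scalings (0.64 to 0.90). With TMM factors Zfp36l2 (0.50) and Zc3h12a (0.51) were not called and Elavl1 was called lower (-0.63), Zfp36l1 was called higher with quantile normalization (0.62) and with the columns as deposited (0.64), and Pum2 was not called with quantile normalization (-0.38) or with the columns as deposited (-0.53).

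**Figure D3:**
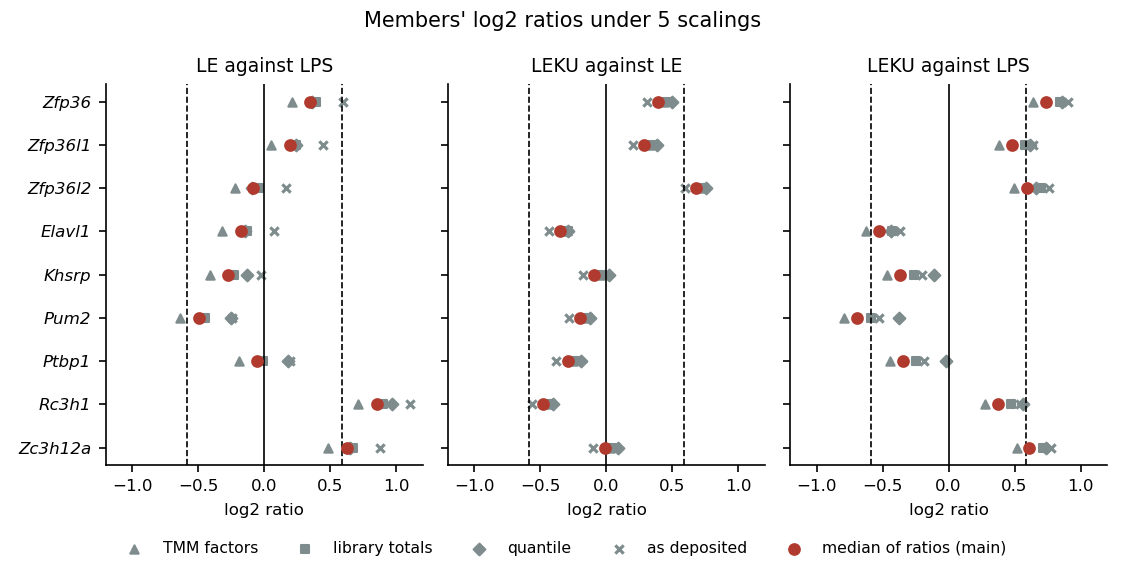
Log2 ratio (x axes) of each member (rows) in the 3 comparisons on the main scaling (red) and under 4 others (grey), with 1.5-fold as dashed lines. Rc3h1 in LE against LPS, Zfp36l2 in LEKU against LE and Zfp36 in LEKU against LPS lie past 1.5-fold under all 5.

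The families of the members were read from their paralogs, of which 10 of 14 were kept. Zfp36l3 and Elavl2, Elavl3 and Elavl4 were near the floor of the table, with levels of at most 9.02. Of the 10 kept, 3 were called higher and 2 lower in LE against LPS, with a median of 0.32. In LEKU against LE, 0 were called higher and 2 lower, with a median of -0.33 and all 10 at or below -0.02 on the main scaling, and the sign of Fubp3 turned under another. In LEKU against LPS, 1 was called higher and 3 lower, with a median of 0.16. Of all genes, 24.1% were called higher and 13.5% lower in LE against LPS. The shares were 6.85% and 12.1% in LEKU against LE, and 22.7% and 13.3% in LEKU against LPS.

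Rc3h2, which encodes Roquin-2, had a larger ratio than Rc3h1: its level was 1868 in LPS, 6200 in LE and 4414 in LEKU (log2 ratios of 1.73 for LE against LPS and -0.49 for LEKU against LE). Per kb, Rc3h2 made up 24.3% of the summed Roquin level in LPS, 37.1% in LE and 36.9% in LEKU. Shares per kb, here and for the families below, depend on the merged exon lengths. By level not divided by length, Rc3h2 stood above Rc3h1 in LE (6200 against 6066) and in LEKU (4414 against 4353). In LPS it stood below (1868 against 3361). The summed Roquin level per kb was 392, 852 and 610.

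In the Regnase family, Zc3h12a made up 53.2% of the summed level per kb in LPS, 61.8% in LE and 67.2% in LEKU, and Zc3h12d, the other abundant member, 43.8%, 34.0% and 29.9%. Zc3h12c, of lower level, was 218 in LPS, 424 in LE and 239 in LEKU (0.96 and -0.82). N4bp1, whose product is a related ribonuclease, had a ratio of 0.76 in LE against LPS, and Zc3h12b had one of 0.55.

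The 3 kept Zfp36 genes had a summed level per kb of 1817 in LPS, 2060 in LE and 2739 in LEKU. Zfp36l1 made up the largest share in each condition (44.3%, 44.6% and 40.9%). The share of Zfp36l2 was 24.5%, 20.3% and 24.5%.

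The summed level per kb of the polypyrimidine-tract family was lower in LE (3517) and LEKU (2942) than in LPS (4212) on the main scaling. Ptbp3 was at -0.63 in LE against LPS, against 0.34 for Ptbp2, which made up 2.11% of the summed Ptbp level per kb in LPS. Fubp1, a KH-domain paralog of Khsrp, was the lowest of the paralogs (8165, 4318 and 2826; -0.92 and -0.61), and Fubp3 was at 0.29 and -0.02.

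Of 18 other binders of 3′ UTRs kept of 19, 12 had a ratio below 0 upon etoposide treatment on the main scaling. Of these 18, 2 were called higher and 5 lower in LE against LPS (median -0.26), where 24.1% and 13.5% of all genes were called. Msi2 (-1.85) and Celf2 (-1.74), both RNA-binding regulators of translation or decay, were lowest, and Cpeb2 (1.41) and Cpeb4 (1.04), which control poly(A) tail length, were highest. Between LE and LEKU, 1 was called higher and 1 lower with KU55933 (median -0.13), where 6.85% and 12.1% of all genes were called. Arid5a, whose product protects stem-loop mRNAs from Regnase-1, was the gene called higher (0.81), and was named after its value was seen.

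The decay enzymes that these proteins bring in were read from 3 lists. In deadenylation, 0 of 14 were called higher and 3 lower in LE against LPS (median -0.28): Cnot6l (-0.91), Cnot2 (-0.89) and Pan3 (-0.69), which encode a catalytic subunit and a scaffold subunit of CCR4-NOT and a subunit of the PAN complex. Of all genes 24.1% were called higher and 13.5% lower, and with the columns as deposited 1 of the 14 was called higher and 2 lower (median -0.03). Cnot11 had the highest ratio (0.36). Of the 15 decapping and 5′ decay genes none was called in either direction in LE against LPS (range -0.47 for Lsm6 to 0.55 for Edc4). Counts of called genes in LEKU against LE were 0 and 0 for both lists, where 6.85% and 12.1% of all genes were called. The exosome list held 15 genes of the exosome and its cofactors. Of these 15, 2 were called higher, Wdr61 (1.00) and Exosc9 (0.77), and 3 lower, with Exosc7 (-0.89) and Exosc1 (-0.69) lowest. Wdr61 encodes a subunit of the Ski complex, a cofactor, and not an exosome subunit. With KU55933, Wdr61 was, relative to LE, at -1.02 and Exosc9 at -0.63. The medians of the decapping and exosome lists in LE against LPS (-0.05 and -0.14) turned sign with the columns as deposited.

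Genes whose products act on these regulators spread in both directions. Of 12, 3 were called higher and 2 lower in LE against LPS (median -0.18, which turned to 0.07 with the columns as deposited), and 4 were called lower with TMM factors. On the main scaling 24.1% of all genes were called higher and 13.5% lower. Mapkapk3, a kinase downstream of p38 that phosphorylates Zfp36 proteins, had a level of 848 in LPS, 4043 in LE and 2787 in LEKU (2.25 and -0.54). Chek2, a kinase activated by ATM that phosphorylates Elavl1, was at 1.27 and -0.82, and Dusp1, a phosphatase that turns off p38, at 1.26 and 0.38. Malt1, the protease that cleaves Regnase-1 and the Roquins, was called lower (-0.84). Atm itself was at -0.52 in LE against LPS and 0.51 in LEKU against LE.

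**Figure D4:**
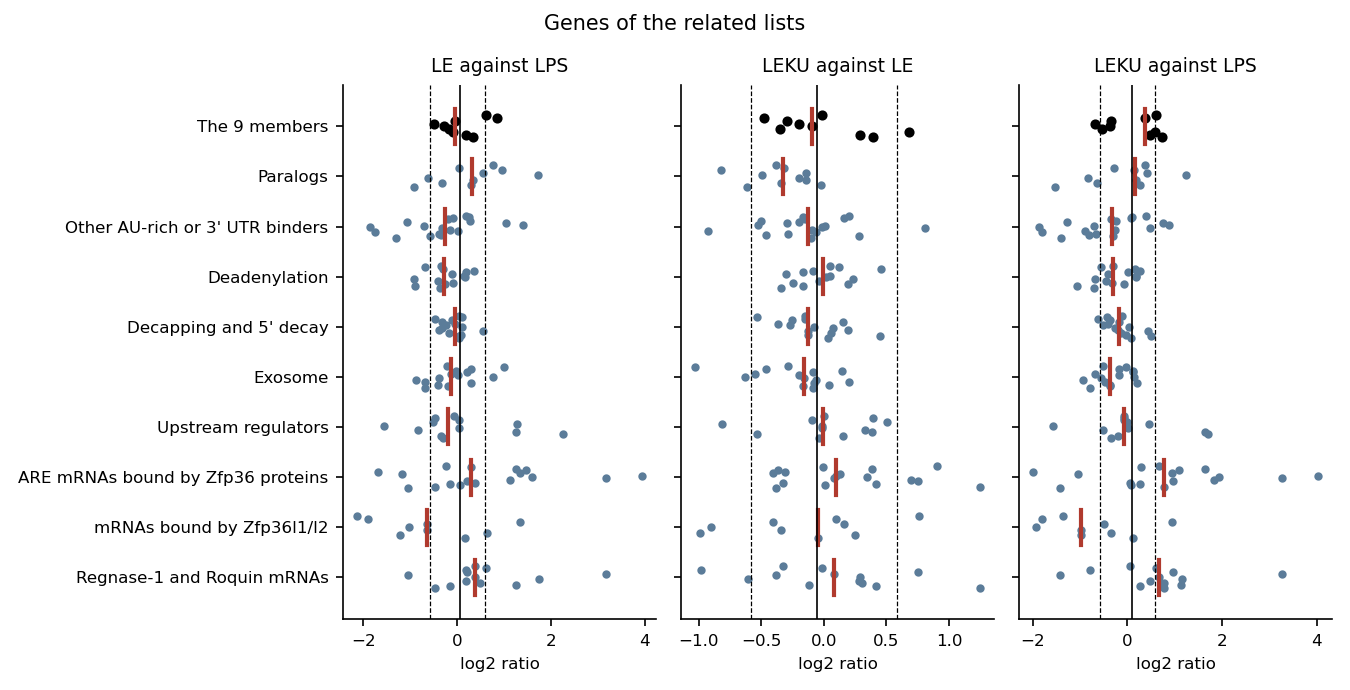
Log2 ratio (x axes) of the kept genes of each list (blue points), the 9 members (black points), the median of each list (red bars), the median of all genes kept (black line) and 1.5-fold (dashed lines) in the 3 comparisons. In LE against LPS the median of the mRNAs bound by Zfp36l1 or Zfp36l2 is -0.65 and that of the Regnase-1 and Roquin mRNAs is 0.38.

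Known target mRNAs were listed to show what the substrates did beside their regulators. The 3 lists were drawn up from general knowledge, but with earlier results of these data known. Their counts beside the shares of all genes are therefore not read as evidence. The lists overlap (Notch1, Tnf, Il6, Il2, Ier3, Cxcl1 and Ptgs2 are each on 2). They say nothing of decay, since only abundance was measured. Of 17 kept of 18 AU-rich element mRNAs bound by Zfp36 proteins, 7 were called higher and 3 lower in LE against LPS (median 0.29, against 24.1% and 13.5% of all genes called). With quantile normalization 6 were called higher and 5 lower (median 0.02), and with the columns as deposited 8 and 3 (median 0.54). Fos (55, 853 and 910 in LPS, LE and LEKU; log2 ratio 3.93) and Ptgs2 (110, 1006 and 1065; 3.18) were highest, and Bcl2 (-1.68) and Myc (-1.18) lowest. In LEKU against LE, 4 were called higher and 0 lower (median 0.09), where 6.85% and 12.1% of all genes were called. In LEKU against LPS the counts were 10 and 3 (median 0.78), where 22.7% and 13.3% of all genes were called.

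Il6, a cytokine mRNA on both the Zfp36 and the Regnase-1 lists, had a level of 292 in LPS, 211 in LE and 501 in LEKU (1.24 for LEKU against LE). Tnf was lower in each step (238, 114 and 87.8). The 3′ UTR of Tnf (764 bases) held 8 UAUUUAU matches, that of Ptgs2 (2445 bases) 6, that of Notch1 (1628 bases) 4 and that of Fos (815 bases) 2. Among 3′ UTRs of similar length, 0.0847% held as many as Tnf, 0.767% as many as Ptgs2, 1.21% as many as Notch1 and 4.09% as many as Fos. Other targets named here or below held fewer or were longer. Bcl2 held 2 matches in 5086 bases, and 36.6% of 3′ UTRs of similar length held as many. Il6, Klf2, Irf8 and Ccne2 held 1 each, and Myc and Nfkbid held 0. Of these, Nfkbid and Ccne2 were higher with etoposide and the rest lower. The densest stretches of Tnf, lower with etoposide, and of Ptgs2, Notch1 and Fos, higher with etoposide, are shown with the matches in capitals.
Tnf, chr17:35199678-35199707, minus strand: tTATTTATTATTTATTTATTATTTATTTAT
Ptgs2, chr1:150105785-150105814, plus strand: gtctactgaccaTATTTATTTATTTATgtg
Notch1, chr2:26459360-26459389, minus strand: ttttttttttagTATTTATTTATgtacttt
Fos, chr12:85477102-85477131, plus strand: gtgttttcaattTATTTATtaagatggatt

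The 9 cell cycle and lymphocyte mRNAs bound by Zfp36l1 or Zfp36l2 were read in the same way. In LE against LPS 2 were called higher and 6 lower (median -0.65), where 24.1% and 13.5% of all genes were called. Klf2, a quiescence factor, was at 849, 194 and 328 (-2.13), and Irf8, a B cell transcription factor, at 13143, 3529 and 3774 (-1.90). Notch1 (1.35) and Ccne2 (0.64), which encodes a G1/S cyclin, were highest. With KU55933, 1 was called higher than in LE and 2 lower (median -0.05), where 6.85% and 12.1% of all genes were called.

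Of 13 kept of 15 Regnase-1 and Roquin mRNAs, 4 were called higher and 1 lower in LE against LPS (median 0.38). Of all genes, 24.1% and 13.5% were called. With the columns as deposited the counts were 7 and 1 (median 0.63), and with TMM factors 3 and 2 (median 0.24). Ptgs2 and Nfkbid (1013, 3421 and 2251; 1.75), which encodes an atypical IκB protein, were highest, and Tnf (-1.05) and Il6 (-0.46) were lowest. Zc3h12a, whose mRNA is its own product's target, counts among the 4 called higher on the main scaling. In LEKU against LE 2 were called higher and 2 lower (median 0.08), where 6.85% and 12.1% of all genes were called. In LEKU against LPS 8 were called higher and 2 lower (median 0.67), where 22.7% and 13.3% of all genes were called.

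Reads of neighbouring or near-identical genes could add to some members, since the counting was not stated to use strand or to drop shared reads. If shared reads were dropped, members would instead lose them, and the levels of the other genes given below would not show that loss. Of the 100-base stretches of Zfp36l1 transcripts, 47.6% were also in another gene, Zfp36l1-ps or Gm26669, whose levels were at most 1.40% and 0.733% of that of Zfp36l1. Ptbp1 shared 9.63% of its stretches, and the largest of its neighbours in the table, Plppr3, was at most 1.77% of its level. Elavl1 overlaps Ccl25 on the other strand, which was at 116, 240 and 190 and so at most 10.4% of Elavl1. The other 6 members shared at most 0.869%.

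The genes with the most similar pattern over the 3 conditions were found by the distance between their 2 log2 ratios against LPS, among 10874 genes with a mean of at least 100. For Zfp36l1 the nearest was Nfkbiz, a Regnase-1 target from the lists above (0.19 and 0.47, distance 0.0045). For Elavl1 it was Fbl, the nucleolar methyltransferase fibrillarin (-0.18 and -0.54, distance 0.0079), and for Pum2 it was Plcb2, a phospholipase C (-0.50 and -0.69, distance 0.0035), followed by Cbx5 and Ubap2. For Zc3h12a the nearest were Angel1, the interferon-induced Mx1 and Zscan21, and for Rc3h1 they were Glo1, Gtf3c3 and Gm20939. Zdhhc4 was nearest to Zfp36, Slc25a30 to Zfp36l2, Rab5c to Khsrp and Pfdn2 to Ptbp1. With 3 condition values a small distance is reached by many genes, and it says nothing of shared control.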

How the data were processed

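Per the labels and the methods of the study, the authors sequenced stranded poly(A) libraries of 12 samples (100 bases, single end), trimmed reads with cutadapt 1.2.1, mapped them to GRCm38 with TopHat2 2.0.12, counted reads per gene with HTSeq on Ensembl 78 and normalised and fitted them with DESeq2 1.6.3. The deposited signal is a table of normalised read counts. Its columns are proportional within a condition (log2 column ratios spread by at most 2.75e-14 over genes), so it holds fitted condition means. The default of the version of DESeq2 that the authors used shrinks such means towards each other, and whether they kept it was not stated. The limma test and the replicate block that were planned could not be fitted, and no p-value is given. The other deposited tables hold the comparisons of the authors (base mean, log2 fold change, standard error, statistic and p-values) and were not used.

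Values were divided by a factor per library, the median ratio to the geometric mean over genes with a mean above 100 (0.848 to 1.29). A gene was kept if 4 or more libraries reached a value of 10, 1 was added before log2, and a change of 1.5-fold or more was called. The scripts were tested on simulated data. Exons, 3′ UTRs and sequences came from GENCODE M21 (GRCm38). Named genes were all 9 members, the paralogs, and the 2 highest and 2 lowest LE against LPS ratios of each list among genes with a mean of at least 100. Some listed genes are not reported here by name. Members and lists were chosen with earlier results of these data known. Alternatives were the scaling, pseudocount, filter, threshold and leaving out each library. Python 3.11.15, numpy 2.4.6, pandas 2.3.3 and matplotlib 3.10.9 were used.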

Additional observations from a re-analysis of the deposited data

How the results depend on the processing

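No paired analysis was possible because the columns hold no spread between replicates, and leaving out each library moved no log2 ratio of a member by more than 0.0050, which only reflects the scaling and does not measure stability. Of 276 counts recomputed, 245 stayed within 1.5 times, and 0 called member ratios reversed. The median move of a gene's log2 ratio in LE against LPS was -0.14 with TMM factors, 0.25 with the columns as deposited and -0.12 with quantile normalization. In LEKU against LPS this median move was 0.10 with library totals, -0.12 with quantile normalization and 0.16 with the columns as deposited. Members called with TMM factors were 1 higher (2 on the main scaling) and 1 lower (0) in LE against LPS, and 1 higher (3) and 2 lower (1) in LEKU against LPS. With quantile normalization or the columns as deposited 0 members were called lower in LEKU against LPS. All genes called lower in LE against LPS were 3390 with quantile normalization and 1139 with the columns as deposited, against 2111. With a minimum of 50, 2453 genes were called higher in LE against LPS (3761) and 1213 lower in LEKU against LE (1884). With 10 required in every library the latter was 1223. With a change of at least 25% as the threshold, members called were 3 higher and 1 lower in LE against LPS, 2 higher and 2 lower in LEKU against LE, and 5 higher and 4 lower in LEKU against LPS. All genes called at that threshold were 3824 lower in LE against LPS, 2641 higher and 3859 lower in LEKU against LE, and 5391 higher and 3806 lower in LEKU against LPS. For genes higher in LE against LPS, the upper quartile of all genes kept was a log2 ratio of 0.55, itself past that threshold. Counts of members in this paragraph show the effect of a setting and are not read as a result about the members. At 2-fold 0 members were called in any comparison, and all genes called higher and lower were 2396 and 760 in LE against LPS, 264 and 738 in LEKU against LE, and 1920 and 786 in LEKU against LPS. A stricter filter tests fewer genes and a threshold sets its own counts, and for the scalings the cause was not tested. Fitted means leave replicate error unknown, so a ratio near 1.5-fold cannot be told from the threshold.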

Other observations

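Genes were also grouped by how often UAUUUAU, the core letters of an AU-rich element, occurred in their longest annotated 3′ UTR, a grouping chosen after the data had been seen. Because long 3′ UTRs hold more matches, genes with 3′ UTRs of 1000 to 2000 bases were taken apart. Among these, the 2141 genes with no match had a median log2 ratio of 0.03 in LE against LPS and 0.10 in LEKU against LPS, and the 81 genes with 3 or more matches, Zfp36l1, Zfp36l2 and Notch1 among them, had medians of 0.20 and 0.39. The share called at least 1.5-fold higher was 24.8% and 34.6% in LE against LPS, and 25.0% and 40.7% in LEKU against LPS. The share called lower in LEKU against LPS was 14.0% and 9.88% in this band, but 13.2% and 14.4% over 3′ UTRs of any length. In LEKU against LE the medians were -0.02 and -0.08, and 7.19% and 7.41% were called higher. In the same band, 25.2% of genes with 1 match and 28.8% with 2 were called higher in LE against LPS. In LEKU against LPS these shares were 26.8% and 26.1%, near that of genes with no match. Over 3′ UTRs of any length the medians were 0.05 for 8849 genes with no match and 0.15 for 480 genes with 3 or more in LE against LPS, and 0.10 and 0.15 in LEKU against LPS. The shares of these 2 groups called higher were 24.9% and 29.8% in LE against LPS, and 23.6% and 28.1% in LEKU against LPS. The median length of the 3′ UTRs differed within the band as well (1407 and 1650 bases), and its part in these values was not tested.

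For UGUANAUA, the letters bound by Pumilio proteins, the values differed between lengths. Within the same band of length the 2323 genes with no match had a median of 0.07 in LE against LPS, the 621 genes with 1 match 0.01, the 159 genes with 2 matches 0.04 and the 43 genes with 3 or more 0.13. In LEKU against LPS the medians were 0.14, 0.01, 0.11 and 0.06. Over 3′ UTRs of any length the medians of genes with 0, 1, 2 and 3 or more matches were 0.12, 0.05, 0.04 and 0.02 in LEKU against LPS, -0.04, -0.06, -0.06 and -0.10 in LEKU against LE, and 0.07, 0.02, 0.03 and 0.04 in LE against LPS. The median length of those 3′ UTRs went from 888 to 3955 bases with the number of matches, and its part in these values was not tested.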
